A study of Mus musculus with 199 samples.

Results

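The mitochondrial respiratory chain and ATP synthase are built from subunits encoded in the nucleus and in mitochondrial DNA, and the nuclear-encoded ones were followed here as mRNAs. Members were the protein-coding genes of the table whose symbols name subunits of complex I (the Nduf families a, b, c, s and v), complex II (Sdha to Sdhd), complex III (the Uqcr genes), complex IV (Cox4 to Cox8) or complex V (Atp5), together with the cytochromes Cyc1 and Cycs. Ndufs5 was left out by that rule and is given beside the members. The rule found 85 of 31581 genes. They were 34 of complex I, 4 of complex II, 10 of complex III counting both cytochromes, 20 of complex IV counting Ndufa4 and its relative Ndufa4l2, and 15 of complex V, with Atp5s and Atp5sl, whose names resemble those of complex V, kept apart.

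RNA was sequenced from 199 mouse libraries. KP1, an explanted small cell lung cancer line with the genotype Rb1-/-Trp53-/-, was sampled as spheroids (28 libraries of 10 cells), as colonies in livers of nude mice, which are immunocompromised (33), and as colonies in livers of immunocompetent F1 mice (31). The pre-cancerous RPC line, with the genotype Rb1-/-Trp53-/-p130-/+Crebbp-/-, was sampled as spheroids (24), so every line shares the loss of Rb1 and Trp53. Pool-and-split controls, in which captured material is pooled and then split, numbered 20 for KP1 spheroids, 35 for nude livers and 24 for F1 livers. Bulk RNA of whole spheroids was sequenced once each from KP1, KP2 (also Ptch1+/lacz), KP3 (Axin2+/lacz) and KP5 (BAT-GAL), by another protocol. Each tumour line is a single line, and the labels give no number of animals or cultures, so p-values measure the spread between libraries, which may be partly technical. Gene counts per library ran from 718208 to 7557770 in the 10-cell libraries, from 956772 to 5830590 in the pools and from 17266200 to 42448000 in bulk. Levels are CPM, counts scaled to a common library total.

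Complex I takes electrons from NADH and complex II, succinate dehydrogenase, takes them from succinate. Complex III passes them to cytochrome c and complex IV, cytochrome c oxidase, passes them to oxygen. Complexes I, III and IV pump protons, and complex V, the ATP synthase, uses the proton gradient to make ATP. The nuclear genes are classic targets of the transcription factors NRF1 and GABP (also called NRF2), and YY1 has been tied to several of them. Small cell lung cancer is a neuroendocrine tumour, and liver is one of its common metastatic sites.

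Promoter sequences of 69 members were matched in the RefSeq table (build GRCm38.p6), each running from 250 bases before to 50 after the first listed start. They were searched on both strands for GCATGCGC (the NRF1 core), CCGGAAGT (a GABP site of the ETS type) and AAGATGGCG (a YY1 site). No sites of different motifs overlapped. The NRF1 core was in 11 of the 69 promoters (15.9%) against 2.80% of all 27025 promoters of the same length, the GABP site in 5 (7.25%) against 4%, and the YY1 site in 7 (10.1%) against 1.49%. At least 1 of the motifs was in 22 (31.9%) against 7.85%. Of the members lower in nude liver than in spheroids, described further on, 15 of 44 with a promoter held at least 1, as did 1 of 7 of those higher and 6 of 12 of those not called. Promoters of 5 members with contrasting levels are shown, 5′ to 3′ on the strand of the gene, with motif letters in capitals; a GABP site on the other strand reads ACTTCCGG. Cycs encodes cytochrome c itself (chr6:50566520-50566819, minus strand), Cox8a a small subunit of complex IV (chr19:7217567-7217866, minus strand) and Uqcrh the hinge protein of complex III (chr4:116075021-116075320, minus strand). All these were lower in nude liver. Atp5e, the epsilon subunit of the ATP synthase (chr2:174464052-174464351, minus strand), and Cox7a2l, a complex III and IV supercomplex factor (chr17:83514284-83514583, minus strand), were higher in nude liver and hold none of these letters. The 5 were chosen after their values were seen, and over all members the share with a motif was not higher among those lower in nude liver (34.1%) than among those not called (50%). A match is a run of letters, not a measured site.
Cycs: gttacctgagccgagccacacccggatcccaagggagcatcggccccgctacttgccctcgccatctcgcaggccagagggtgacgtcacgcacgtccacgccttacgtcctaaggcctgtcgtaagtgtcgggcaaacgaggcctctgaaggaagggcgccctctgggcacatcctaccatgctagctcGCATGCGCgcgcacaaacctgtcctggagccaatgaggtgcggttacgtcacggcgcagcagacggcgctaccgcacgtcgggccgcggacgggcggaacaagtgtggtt
Cox8a: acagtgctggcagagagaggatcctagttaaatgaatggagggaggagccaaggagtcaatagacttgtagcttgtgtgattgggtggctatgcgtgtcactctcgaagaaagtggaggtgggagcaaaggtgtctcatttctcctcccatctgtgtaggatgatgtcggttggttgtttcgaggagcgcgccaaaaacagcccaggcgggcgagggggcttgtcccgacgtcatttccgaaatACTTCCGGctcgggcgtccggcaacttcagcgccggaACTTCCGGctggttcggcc
Uqcrh: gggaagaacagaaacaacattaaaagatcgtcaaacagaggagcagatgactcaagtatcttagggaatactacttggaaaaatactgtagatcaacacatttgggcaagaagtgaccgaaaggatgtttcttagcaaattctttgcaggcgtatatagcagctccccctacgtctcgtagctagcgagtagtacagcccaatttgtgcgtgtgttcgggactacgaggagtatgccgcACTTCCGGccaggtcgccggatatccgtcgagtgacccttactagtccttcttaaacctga
Atp5e: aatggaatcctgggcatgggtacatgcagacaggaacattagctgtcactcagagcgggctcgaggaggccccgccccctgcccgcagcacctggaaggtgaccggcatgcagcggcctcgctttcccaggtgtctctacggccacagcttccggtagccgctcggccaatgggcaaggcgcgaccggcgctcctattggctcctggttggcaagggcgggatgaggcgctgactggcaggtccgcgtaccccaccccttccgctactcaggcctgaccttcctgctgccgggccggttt
Cox7a2l: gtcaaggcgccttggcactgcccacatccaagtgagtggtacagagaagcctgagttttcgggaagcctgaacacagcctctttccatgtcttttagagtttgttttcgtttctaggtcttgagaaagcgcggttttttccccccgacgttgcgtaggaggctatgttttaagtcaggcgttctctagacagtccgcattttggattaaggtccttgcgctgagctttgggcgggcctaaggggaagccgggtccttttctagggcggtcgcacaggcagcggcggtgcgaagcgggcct

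In KP1 spheroids the members together took 4.43% of gene counts (44303 ± 7148 CPM summed, SD, n = 28). In nude liver they took 2.84% (28412 ± 4459, n = 33), in F1 liver 3.27% (32676 ± 5220, n = 31) and in RPC spheroids 3.80% (37984 ± 5468, n = 24). Complex IV had the largest proportional difference from spheroids in each of the other 3 groups, with a summed level of 12166 ± 2728 CPM in spheroids, 4636 ± 1583 in nude liver, 6997 ± 1643 in F1 liver and 9149 ± 2212 in RPC. For complex I the sums were 11206 ± 2021, 8447 ± 2814, 8520 ± 1505 and 10434 ± 1565 CPM in the same order, and for complex III 5656 ± 1411, 3167 ± 964, 4269 ± 1247 and 5484 ± 1337. Without nude liver replicate 30, which held 16664 CPM of Ndufb2 alone, the nude liver sum of complex I was 8037 ± 1563 (n = 32). Complex V was the largest sum, at 14545 ± 1878, 11728 ± 1854, 12452 ± 2173 and 12314 ± 1498 CPM. Complex II was the smallest sum, at 707 ± 276, 422 ± 269, 422 ± 325 and 590 ± 239. The complex IV sums of spheroids ran from 4845 to 17095 CPM and those of nude liver from 1831 to 9161, so the ranges overlapped although the medians were 12303 and 4668. The pools kept the order, with complex IV sums of 8915 ± 1612 in spheroids, 4007 ± 1335 in nude liver and 5824 ± 1993 in F1 liver.

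**Figure D1:**
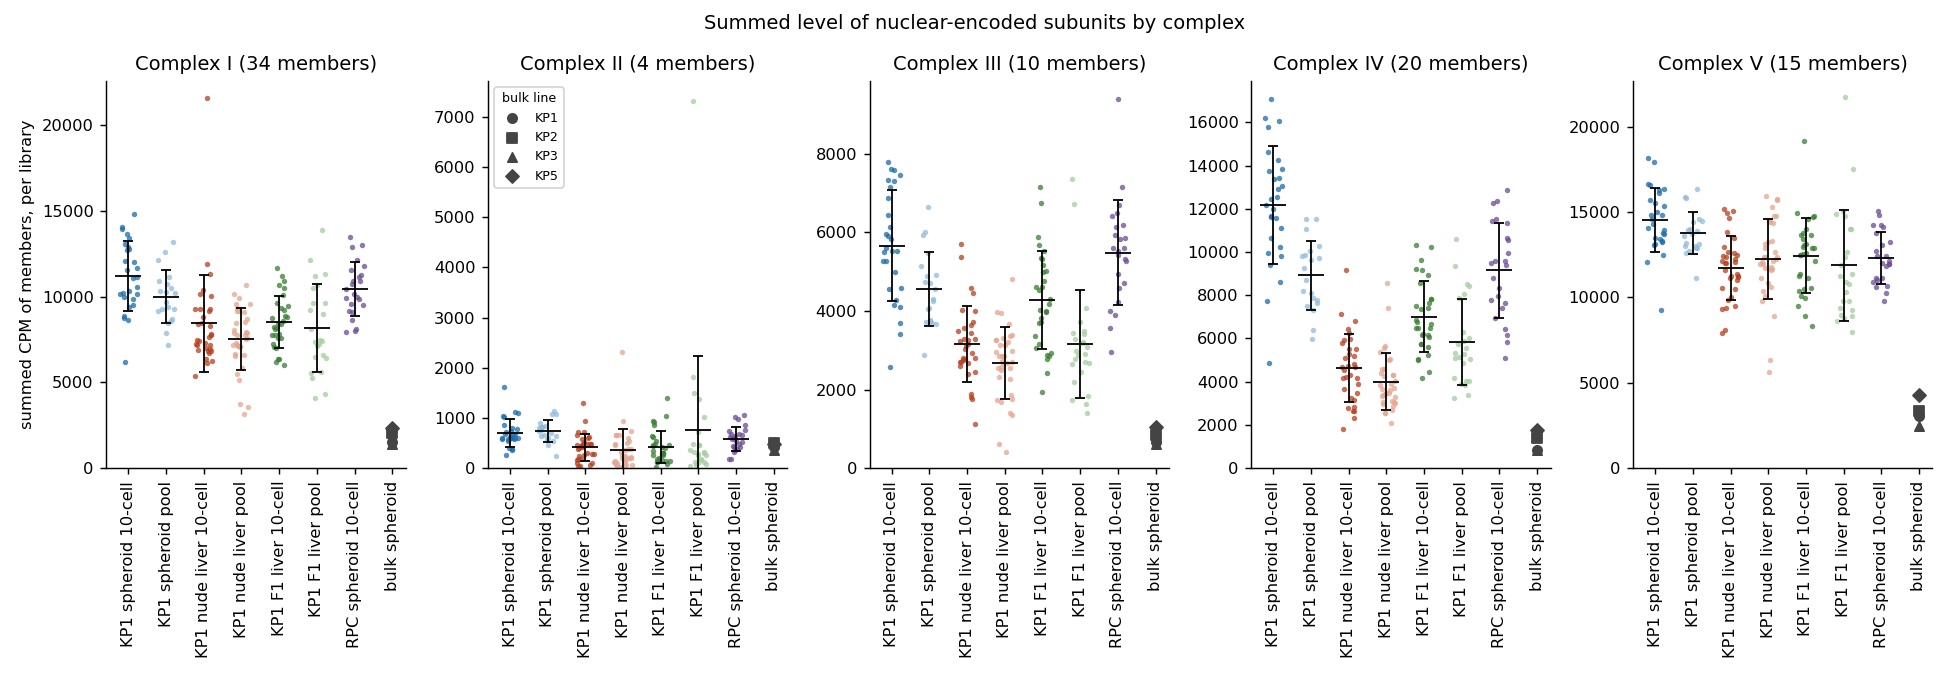
Summed CPM of the members of each complex in every library (points), with the mean and SD of each group (black) and the 4 bulk lines as separate symbols; axes start at 0 and differ between panels. Complex IV falls from 12166 CPM in spheroids to 4636 in nude liver, and the bulk libraries lie lower than the group means for complexes I, III, IV and V.

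Per length of transcript, Atp5e had the highest mean level over the 10-cell libraries (4910 CPM per kb), followed by Uqcrh (3660), Cox4i1, the main form of subunit 4 of complex IV (2953), Ndufa2, an accessory subunit of complex I (2619), and Atp5o, the stalk subunit called OSCP (1322). Complex II was low on the same scale: its iron-sulfur subunit Sdhb, the highest of its members, had 369 CPM per kb in spheroids, the flavoprotein Sdha 78.4 and the membrane anchor Sdhc 27.8. Of the 85 members, 9 were too low to be tested in any 10-cell comparison (Atp5s, Cox4i2, Cox6b2, Cox7a1, Cox7b2, Cox8b, Cox8c, Ndufa4l2 and Sdhd), and Cox6a2 was also not tested where F1 liver was compared.

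The first question was how colonies in nude liver differ from spheroids. Of the 76 members tested, 50 were lower in nude liver and 7 were higher (edgeR, adjusted p under 0.05 over all genes tested), against 16.3% of all 7834 genes lower and 17.7% higher. The median log2 difference was -1.09 for the members and -0.04 for all genes tested. By complex, 12 of 13 tested members of complex IV were lower, with a median of -2.21, and 1 was higher. In complex I 23 of 34 were lower and 4 higher (median -0.97), in complex III 4 of 10 were lower (-0.77), in complex V 10 of 15 were lower and 2 higher (-0.91), and in complex II 1 of 3 was lower (-0.59). In libraries of 10 pooled cells, fewer cells of a type and less RNA per cell cannot be told apart.

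Cox6c, a small nuclear-encoded subunit of complex IV, ran from 451 to 2941 CPM in spheroids (median 1484) and from 2.51 to 758 in nude liver (median 345). All 33 nude liver libraries were under the spheroid median and 22 under the lowest spheroid library. The fitted log2 difference was -2.45 (SE 0.26, adjusted p 6.77e-12). Cox7c, another small subunit, had a spheroid range of 148 to 671 CPM (median 339) and a nude liver range of 0 to 370 (median 78.4), a log2 difference of -2.36 (SE 0.31). For Cox7c 31 of 33 nude liver libraries lay under the lowest spheroid library, the nearest to a full separation among the members described here. Cox8a was at 411 to 1903 CPM in spheroids (median 1042) and 0 to 815 in nude liver (median 254), a log2 difference of -2.28 (SE 0.28). Ndufa4, first assigned to complex I and now placed with complex IV, had 30 of 33 nude liver libraries under the lowest spheroid library (log2 difference -2.21, SE 0.26). Cox4i1, the most abundant of the complex in mean CPM, fell less, from a median of 2680 CPM to 1697 (log2 difference -0.86, SE 0.17).

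In complex III, Uqcrb, which binds ubiquinone, was at 83.6 to 1742 CPM in spheroids (median 1063) and 0 to 698 in nude liver (median 103). Its log2 difference was -3.04 (SE 0.41, adjusted p 7.95e-09), and all 33 nude liver libraries were under the spheroid median. Cytochrome c (Cycs) fell from a median of 320 CPM (107 to 588) to 42.9 (0 to 272), a log2 difference of -2.56 (SE 0.35). The Rieske iron-sulfur protein Uqcrfs1 had a log2 difference of -2.10 (SE 0.38), and Uqcrh one of -1.33 (SE 0.19). Cyc1, the cytochrome that hands electrons to cytochrome c, had a median of 281 CPM in spheroids and 269 in nude liver, and was not called. Neither were the core proteins, with medians of 111 and 97.0 CPM for Uqcrc1 and 19.3 and 3.58 for Uqcrc2. In complex II, Sdhb was at 161 to 897 CPM in spheroids (median 389) and 0 to 670 in nude liver (median 114), a log2 difference of -1.43 (SE 0.38, adjusted p 0.00222), while Sdha, with medians of 211 and 163, and Sdhc, with 50.7 and 13.2, were not called.

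In complex I, Ndufa5, an accessory subunit, was at 203 to 1094 CPM in spheroids (median 435) and 0 to 475 in nude liver (median 84.8), and 28 of 33 nude liver libraries lay under the lowest spheroid library (log2 difference -2.26, SE 0.31, adjusted p 1.09e-08). The largest subunit, Ndufs1, fell by 1.30 on the log2 scale (SE 0.50). Against that direction, Ndufa10 was at 2.84 to 219 CPM in spheroids (median 54.9) and 26.5 to 791 in nude liver (median 220), a log2 difference of 1.47 (SE 0.30, adjusted p 6.64e-05), and 17 of 33 nude liver libraries were above the highest spheroid library. Ndufs3, a core subunit of the peripheral arm, was also called higher (log2 difference 1.41, SE 0.34). With a hepatocyte score in the fit, which goes along with the group, the difference was -0.23 and was not called (edgeR, adjusted p 0.842). Ndufv1, which holds the NADH-binding flavin site, was higher by 0.95 (SE 0.34). The call of Ndufb2 rests on 1 library: nude liver replicate 30 held 16664 CPM, 77.1% of the group's summed level, and the next highest held 985. Without it the log2 difference went from 2.72 to -0.11 (adjusted p 0.797).

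Complex V split by subunit. Atp5j, the coupling subunit F6 of the stalk, was at 309 to 2149 CPM in spheroids (median 1361) and 7.96 to 727 in nude liver (median 206), a log2 difference of -2.73 (SE 0.28, adjusted p 3.15e-12), with every nude liver library under the spheroid median. Atp5e went the other way, from a median of 1654 CPM (383 to 4060) to 3118 (1209 to 7446), a log2 difference of 0.83 (SE 0.22). The delta subunit Atp5d, like Atp5e part of the central stalk, rose from a median of 216 CPM (16.4 to 604) to 514 (267 to 1689), a log2 difference of 1.31 (SE 0.26, adjusted p 5.61e-05). No nude liver library was under the spheroid median for Atp5d. The catalytic beta subunit Atp5b fell little (log2 difference -0.53, SE 0.18), and its partner, the alpha subunit Atp5a1, had medians of 1399 CPM in spheroids and 1478 in nude liver. In complex IV the only member called higher was Cox7a2l, from a median of 137 CPM (19.5 to 595) to 474 (21.8 to 950), a log2 difference of 1.51 (SE 0.23, adjusted p 1.88e-07).

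**Figure D2:**
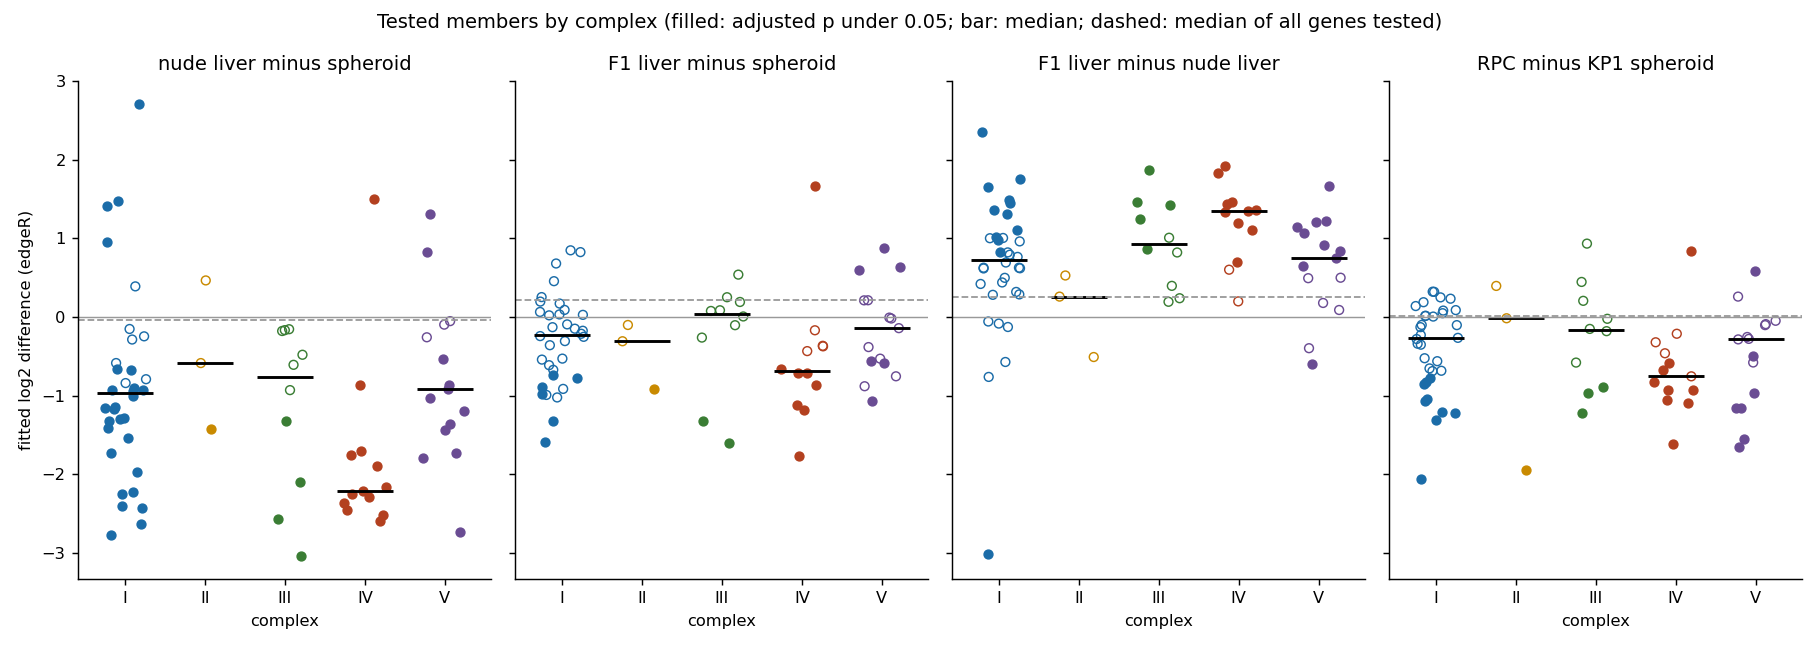
Fitted log2 difference of every tested member, by complex, in 4 comparisons; filled points passed the test, black bars are medians over the members of a complex and dashed lines medians over all genes tested. Complex IV has the lowest median in nude liver against spheroids (-2.21) and the highest in F1 against nude liver (1.35).

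**Figure D3:**
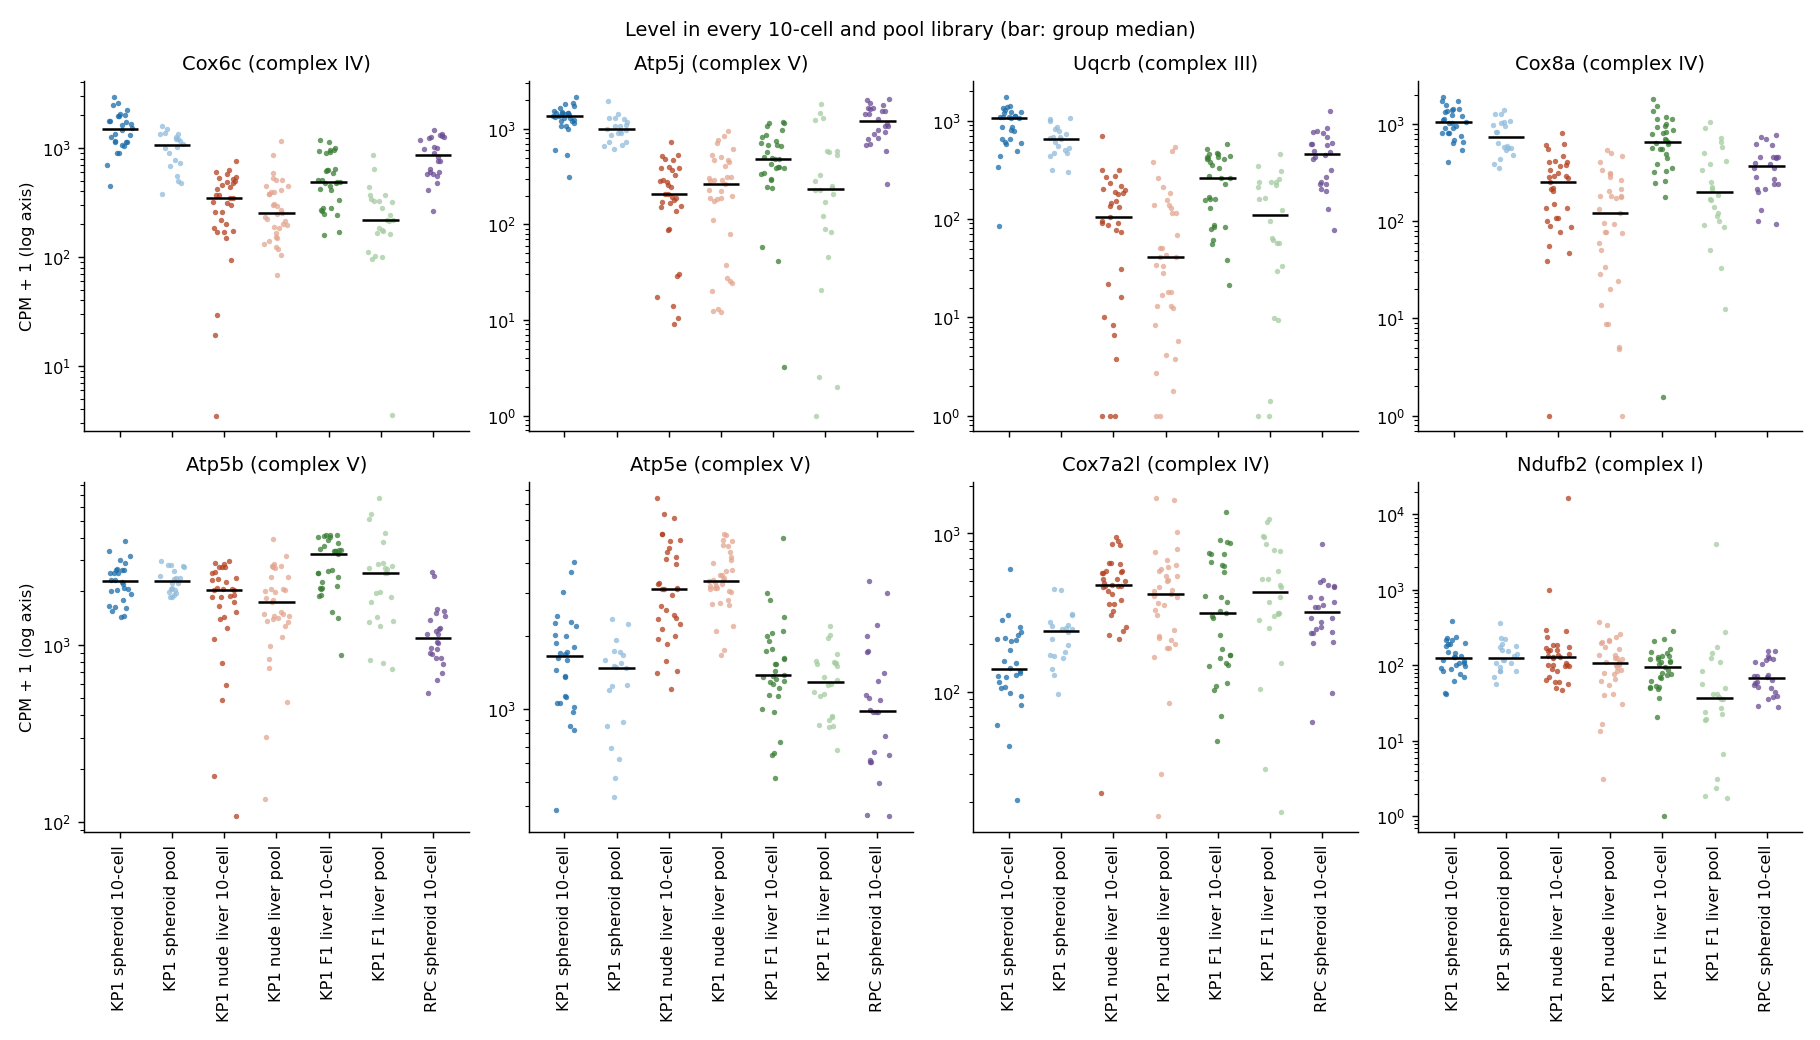
CPM + 1 on a log axis in every 10-cell and pool library for 8 members, with group medians as bars. Cox6c, Atp5j, Uqcrb and Cox8a are low in nude liver, Atp5e and Cox7a2l are high there, and the single Ndufb2 library at 16664 CPM stands apart.

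Several measures moved together with this comparison. Transcripts of most members are short, and 55 of 85 had a mean transcript length under 1000 bases. Among genes under 1000 bases, 79.2% of 48 tested members were lower in nude liver against 39.0% of 610 other genes. With the further limit of a mean of at least 100 CPM, the shares were 76.2% of 42 members and 53.8% of 275 other genes. Of longer genes, 42.9% of 28 members and 13.2% of 6931 other genes were lower. Liver cell markers rose as well: summed over 24 hepatocyte genes, the median was 87.8 CPM in spheroids (6.60 to 324; 6 of 24 genes with counts, Alb and Apoa1 at 0), 1252 in nude liver (147 to 5833; 24 of 24), 399 in F1 liver (4.91 to 3099; 24 of 24) and 8.58 in RPC (0 to 67.7; 10 of 24). Over 5 erythrocyte genes the medians were 0, 551, 1622 and 0 CPM. The tumour's own neuroendocrine markers (11 of 11 with counts in each group) had summed medians of 1893, 1246, 1404 and 1296 CPM. With a hepatocyte score in the fit, 28 members were lower and 5 higher, 33 in all, and of the members described above Ndufa10, Ndufs1, Ndufs3, Ndufv1, Sdhb, Uqcrh, Cox4i1 and Atp5e were not called. Hepatocyte markers differed between the groups themselves, so that fit cannot fully separate score from group. Shares of all genes called are given for the main fits only, here and in what follows. Counts under other fits cannot be set against them. With every library thinned to the lowest total, 43 of 73 tested members were lower and 8 higher. The part of transcript length and host RNA in the result was not tested beyond these values. Spheroid libraries carried ERCC spike-in counts in 9 cases and nearly none in 19. Against the 9 alone 42 members were lower and 2 higher, with Sdhb, Ndufs1, Ndufs3, Ndufv1, Atp5d and Atp5e not called, and against the 19 alone 38 and 7, with Atp5b, Ndufs1 and Ndufv1 not called.

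**Figure D4:**
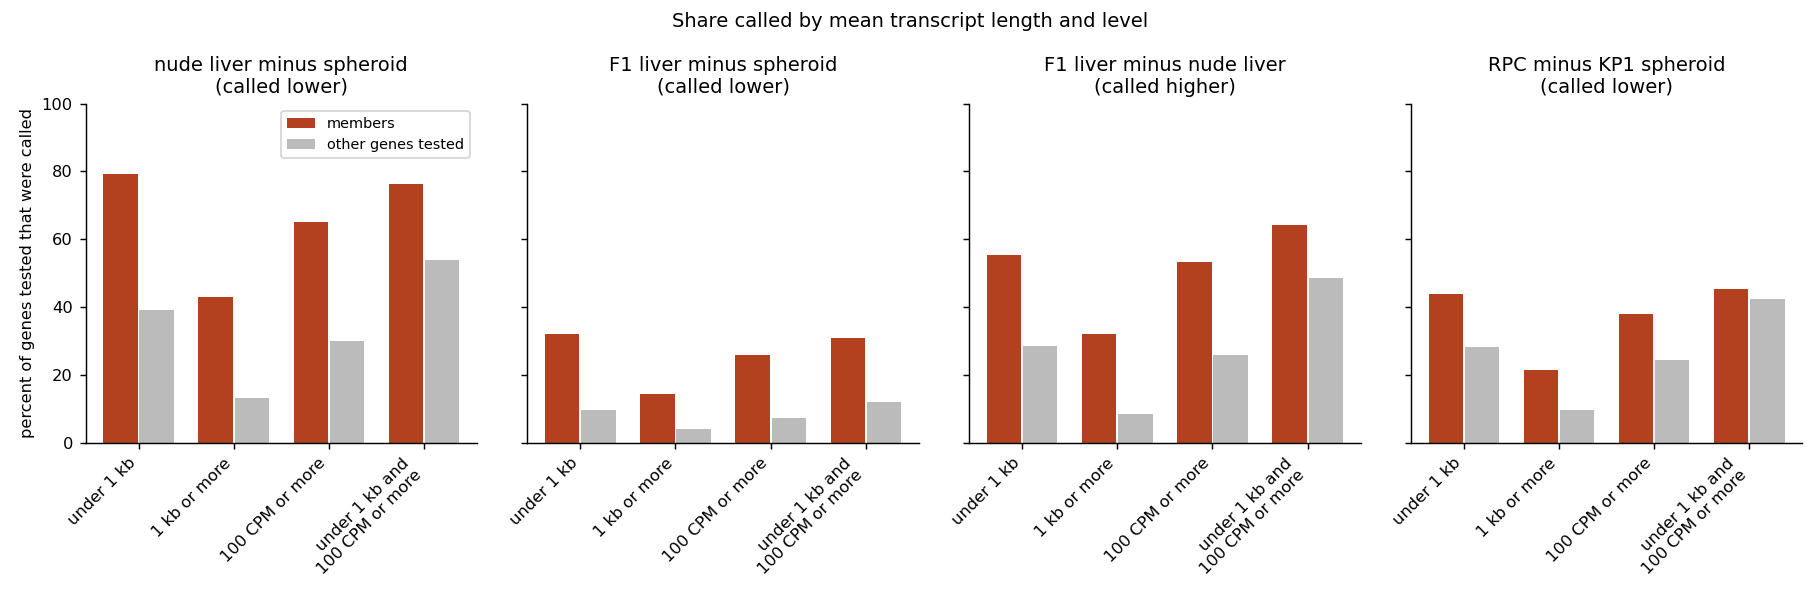
Percent of tested genes called lower (higher for F1 against nude liver), for members and for all other genes with a known length, by mean transcript length and mean level. In nude liver against spheroids 76.2% of the short, abundant members were lower against 53.8% of other short, abundant genes, and in RPC against KP1 the same shares were 45.2% and 42.3%.

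Other genes of the organelle were read from fixed lists, beside the 16.3% of all genes lower and 17.7% higher. Of the mitochondrially encoded subunits, which the nuclear members assemble with, 11 of 12 tested were lower in nude liver and none was higher; mt-Co3 fell from 20894 ± 8369 to 9249 ± 6642 CPM (log2 difference -1.50, SE 0.24), mt-Nd1 by 2.18 on the log2 scale and mt-Nd6 by 2.47. Of the assembly factors 6 of 35 were lower, a share (17.1%) near that of all genes, and 1 higher, of the citric acid cycle and pyruvate dehydrogenase genes 4 of 17 lower and 0 higher, and of the import machinery 6 of 18 lower and 1 higher. Mitochondrial ribosomal proteins had 26 of 75 lower and 8 higher, and cytosolic ribosomal proteins, which are also short and abundant, 50 of 88 lower and 10 higher. Of the regulators of mitochondrial biogenesis 2 of 7 tested were lower and none was higher: Lrpprc, which stabilises mitochondrial mRNAs (log2 difference -1.80, SE 0.41), and Tfam, which maintains mitochondrial DNA (-1.44, SE 0.57). Nrf1, the regulator whose core motif was searched above, was at 31.3 ± 51.7 CPM in nude liver and 18.8 ± 21.9 in spheroids (adjusted p 0.379). Ndufs5 fell from 9914 ± 3249 to 2062 ± 1033 CPM (log2 difference -2.55, SE 0.20).

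Colonies in F1 liver were compared with the same spheroid libraries. Of 75 members tested, 19 were lower and 4 higher, against 4.91% and 7.73% of all genes, and the median log2 difference was -0.25 for members and 0.22 for all genes. All 19 lower members were also among the 50 lower in nude liver; the comparisons share the spheroid libraries. Complex IV again had the most, with 7 of 12 lower and 1 higher. Complex I had 6 of 34 lower, complex V 3 of 15 lower and 3 higher, complex III 2 of 10 lower and complex II 1 of 3. Fitted differences rest on library scaling factors and need not equal ratios of mean CPM. Among short genes at 100 CPM or more, 31.0% of 42 members and 12.0% of 283 other genes were lower.

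Cox7c was at 17.3 to 258 CPM in F1 liver (median 83.1), and 26 of 31 libraries were under the lowest spheroid library, with a log2 difference of -1.77 (SE 0.21, adjusted p 1.08e-09). Its medians in the livers of both hosts, 83.1 and 78.4 CPM, lay close together. Uqcrb had a median of 261 CPM in F1 liver (20.1 to 581), a log2 difference of -1.60 from spheroids (SE 0.26), and Atp5j one of 484 (2.19 to 1188) with a difference of -1.07 (SE 0.25). Cox6c stood at a median of 492 CPM (157 to 1184; log2 difference -1.12, SE 0.24) and Cycs at 98.4 (12.7 to 269; -1.33, SE 0.25). In complex I the call with the smallest p was Ndufa7, at 27.4 to 556 CPM (median 173) against 166 to 997 in spheroids (median 485), a log2 difference of -0.98 (SE 0.25). Sdhb was lower as well, at a median of 126 CPM in F1 liver (log2 difference -0.91, SE 0.30). Its mean was 149 CPM in the 26 F1 libraries with Rpl19-ps11, a ribosomal pseudogene, at 100 CPM or more and 465 in the other 5, against 421 in spheroids, and with those 5 alone the difference turned to 0.067 and was not called (adjusted p 0.955).

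The members that rose in F1 liver were Atp5b, Atp5a1, Atp5d and Cox7a2l. Atp5b was at 877 to 4165 CPM (median 3237) against 1436 to 3829 in spheroids (median 2277), with a log2 difference of 0.60 (SE 0.15), and Atp5a1 had a difference of 0.64 (SE 0.16); these are the catalytic head subunits of the ATP synthase. Atp5d rose by 0.88 (SE 0.31) on that scale. Cox7a2l was at 47.9 to 1360 CPM (median 315), a log2 difference of 1.67 (SE 0.28, adjusted p 1.35e-05), and 10 of 31 libraries were above the highest spheroid library. Within spheroid libraries split by ERCC counts, 6 were lower and 1 higher against the 9 with them and 8 lower and 4 higher against the 19 without. Sdhb was called in neither, Atp5j, Cycs, Atp5b, Atp5a1 and Atp5d not against the 9, and Ndufa7 not against the 19. For the split of F1 libraries by Rpl19-ps11, with the 26 at 100 CPM or more alone 13 members were lower and 4 higher, and with the other 5 alone 15 and 1, with Cox7a2l, Atp5j, Atp5b, Atp5a1 and Atp5d not called. Without spheroid replicate 8 the count of lower members went from 19 to 13. With a hepatocyte score in the fit 9 were lower and 4 higher, and Sdhb and Cox6c were not called.

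Compared directly, F1 liver was above nude liver for 35 of 75 tested members and under it for 2, against 11.2% and 7.98% of all 7064 genes. The median log2 difference was 0.82 for the members and 0.26 for all genes. Summed CPM lay closer together, at 32676 ± 5220 in F1 and 28412 ± 4459 in nude liver for all members. For complex I the sums were 8520 and 8447 CPM, for complex V 12452 and 11728, for complex III 4269 and 3167 and for complex IV 6997 and 4636. The size of the fitted differences and the number of calls thus also rest on the library scaling factors. Of the 50 members lower in nude liver than in spheroids, 33 were higher in F1 than in nude liver; both counts rest on the same nude libraries. Complex IV had 10 of 12 higher (median 1.35), complex V 9 of 15 higher and 1 lower, complex III 5 of 10 higher, and complex I 11 of 34 higher and 1 lower. Among short genes at 100 CPM or more 64.1% of 39 members were higher, against 48.5% of 260 other genes, and of the cytosolic ribosomal protein genes 63 of 88 were higher.

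Cox8a was at 0.548 to 1812 CPM in F1 liver (median 661) and 0 to 815 in nude liver (median 254), a log2 difference of 1.92 (SE 0.32, adjusted p 4.9e-06), and 12 of 31 F1 libraries were above the highest nude library. Uqcrh had medians of 1395 CPM (638 to 4238) and 972 (230 to 2778), a difference of 1.43 (SE 0.22, adjusted p 6.83e-07). Ndufb6, of the membrane arm of complex I, had medians of 141 CPM (5.50 to 717) and 37.3 (0 to 350), a difference of 2.35 (SE 0.45). For Atp5b, medians of 3237 and 2024 CPM gave a difference of 1.14 (SE 0.18, adjusted p 1.61e-06), and 16 of 31 F1 libraries were above the highest nude library. Atp5e was lower in F1 liver, at a median of 1377 CPM (517 to 5084) against 3118 (log2 difference -0.59, SE 0.22, adjusted p 0.0485). The other call in that direction was Ndufb2, which rests on nude liver replicate 30: its difference went from -3.02 to -0.30 (adjusted p 0.553) without that library. The call of Ndufb3 rests on F1 replicate 4, and its difference went from 1.76 to 1.04 (adjusted p 0.195) without it. With the 26 F1 libraries at 100 CPM of Rpl19-ps11 or more, 37 members were higher and 2 lower, and with the other 5 alone 1 was higher and 1 lower, and Uqcrh, Cox8a and Atp5b were not called; with the 26 alone Atp5e was not.

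The pre-cancerous RPC line was compared with KP1, both as spheroids. Of 76 tested members 27 were lower in RPC and 2 higher, against 11.6% and 10.3% of all 8600 genes, with a median log2 difference of -0.35 for the members and 0.01 for all genes. Another scaling of the libraries (RLE) moved the median of all genes to 0.16 and gave 24 lower and 3 higher. Complex IV had 8 of 13 lower and 1 higher, complex V 6 of 15 lower and 1 higher, complex I 9 of 34 lower, complex III 3 of 10 and complex II 1 of 3. Short genes at 100 CPM or more were lower in 45.2% of 42 members and in 42.3% of 272 other genes, so the share of members was near that of other short, abundant genes. Of the mitochondrially encoded subunits 11 of 12 were lower and none higher. Ndufs5 was at 332 ± 134 CPM in RPC against 9914 ± 3249 in KP1 (log2 difference -5.14, SE 0.25).

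Ndufa12, which sits beside the NADH-oxidising arm of complex I, was at 13.8 to 211 CPM in RPC (median 74.2) and 125 to 522 in KP1 (median 265), a log2 difference of -2.06 (SE 0.24, adjusted p 1.84e-10). Of the 24 RPC libraries 19 were under the lowest KP1 library, and all were under the KP1 median. Sdhb had medians of 104 CPM (17.5 to 410) and 389, a difference of -1.95 (SE 0.26), and 19 of 24 libraries were under the lowest KP1 library. The other tested complex II subunits were not called, with Sdha at a median of 373 CPM in RPC against 211 and Sdhc at 65.7 against 50.7. Cox8a was at 92.0 to 780 CPM (median 370), a difference of -1.62 (SE 0.26, adjusted p 1.25e-06). Atp5l, subunit g of the membrane part of the ATP synthase, was at 242 to 887 CPM (median 434) against 587 to 2336 in KP1 (median 1130), a difference of -1.55 (SE 0.22). Uqcrb differed by -1.22 (SE 0.26), Cox7c by -1.09 (SE 0.20) and Atp5b by -1.16 (SE 0.18). Atp5o rose, from a median of 1067 CPM (147 to 2026) to 1653 (666 to 2530), with a difference of 0.59 (SE 0.20), and so did Cox7a2l, from 137 to 317 (62.8 to 852), with 0.84 (SE 0.22). Neither these nor Cycs were called against the 9 KP1 libraries with ERCC counts alone. Atp5j and Cox4i1, with medians of 1193 and 2601 CPM in RPC against 1361 and 2680, were not called.

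Subunits with alternative forms differed between lines and sites. Cox4i2, the form of subunit 4 known from lung and from hypoxia, was at 0 in all 28 KP1 spheroid libraries and at 24.7 ± 33.8 CPM in RPC (0 to 122, median 12.6), with counts in 21 of 24 libraries. Its pooled level in RPC was 1033 times a floor of 3 counts over the KP1 group, a ratio that depends on that floor. A fit without a filter on low counts gave a log2 difference of 9.94 (edgeR, adjusted p 7.61e-10). It had counts in 1 of 33 nude and 1 of 31 F1 liver libraries. Cox6a2, the heart and muscle form of subunit 6a, was at 25.1 ± 33.4 CPM in KP1 spheroids (25 of 28 libraries with counts), 5.44 ± 20.3 in nude liver (7 of 33), 0.202 ± 0.830 in F1 liver (4 of 31) and 19.7 ± 22.3 in RPC (23 of 24). Its log2 difference in nude liver was -2.52 (edgeR, SE 0.85, adjusted p 0.0164). With a hepatocyte score in the fit, which goes along with the group, the difference was 4.81 and was not called (edgeR, adjusted p 0.113). In bulk Cox6a2 was at 23.1 CPM in KP1, 25.3 in KP3, 1.28 in KP5 and 0.212 in KP2. The form found in most tissues, Cox6a1, was at 606 ± 177, 212 ± 182, 417 ± 209 and 347 ± 108 CPM in the same 4 groups of 10-cell libraries. Cox8b, another muscle form, had counts in 9 of 28 KP1 spheroid libraries and in no 10-cell library of nude liver, F1 liver or RPC, and Cox8c was at 0 in every library. Ndufa4l2, which is induced in hypoxia, was at 17.0 CPM in KP2 bulk and at or under 0.898 in the other bulk lines.

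The ring subunit c of the ATP synthase is encoded by Atp5g1, Atp5g2 and Atp5g3, which give the same mature protein. Atp5g3 was at 930 ± 307 CPM in spheroids, 319 ± 241 in nude liver, 544 ± 306 in F1 liver and 1009 ± 289 in RPC, and Atp5g1 at 728 ± 250, 471 ± 261, 648 ± 398 and 621 ± 175. Nude liver was lower than spheroids by 1.80 on the log2 scale for Atp5g3 (SE 0.26) and by 0.86 for Atp5g1 (SE 0.23). Atp5g2 was the least abundant, at 126 ± 60.8 CPM in spheroids, and lower in RPC by 1.65 (SE 0.31). Pseudogene copies limit some members: of the reads on Atp5g2 and the 3 pseudogenes that match it by sequence, the pseudogenes held 50 to 58.3% in the 10-cell groups and 94.8 to 96.1% in bulk. For Ndufb4 the shares were 59.8 to 63.9% and 73.4 to 77.8%, for Cycs 28.7 to 40.0% and 21.7 to 32.1%, for Cox7c 10.6 to 16.4% and 55.3 to 57.8%, for Atp5l 0.235 to 0.930% and 39.8 to 43.1%, for Cox7a2l 0.347 to 3.05% and 14.9 to 16.9%, and for Atp5g1 2.24 to 4.47% and 11.0 to 20.0%. Adding the counts of matched pseudogenes to each member changed none of the counts of called members in the 7 comparisons of level. Of the members 27 share exon bases with another gene. Ndufb11 and Ndufb5 share 12.9 and 12.3% with a gene on the opposite strand (Rbm10 and Mrpl47). They alone share 10% or more with a gene measured at 10% or more of their own level. Ndufb6 shares 39.0%, Atp5o up to 18.1% and Cox5a 12.8% with opposite-strand genes without a measured level. Whether strand was used in counting is not given in the sources used here.

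The pool-and-split controls were compared in the same way. As splits of pooled material, these libraries are not separate captures, and their p-values do not measure the spread between captures. In nude liver pools against spheroid pools 27 of 75 members were lower and 6 higher, against 9.13% and 16.5% of all genes, with medians of -0.62 for the members and 0.16 for all genes. All 27 were also lower in the 10-cell comparison, and Atp5d, Atp5e, Cox7a2l, Ndufa10 and Ndufv1 were higher in both. Complex IV had 10 of 12 lower and 1 higher. Uqcrb had a median of 40.2 CPM in nude pools (0 to 538) against 654 (302 to 1054), a log2 difference of -2.61 (SE 0.49), and Cox6c one of 252 (67.0 to 1167) against 1055 (381 to 1585), a difference of -1.45 (SE 0.24). For Cox8a 31 of 35 nude pools were under the lowest spheroid pool (log2 difference -2.11, SE 0.40). Atp5e was nearly separated, at 1674 to 5283 CPM (median 3388) in nude pools and 432 to 2354 (median 1480) in spheroid pools, with 31 of 35 nude pools above the highest spheroid pool and a difference of 1.57 (SE 0.18, adjusted p 2.6e-10). With a hepatocyte score in the fit 2 members were lower and 1 higher in the nude pools, with Uqcrb and Cox6c not called, and with only the spheroid pools that carried ERCC counts 14 and 2. A voom fit called 51 lower and 6 higher.

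In F1 pools against spheroid pools 4 members were lower (Atp5g2, Cox6c, Cox7c and Uqcrb) and 7 higher, against 2.65% and 8.94% of all genes. RLE scaling gave 8 lower and 5 higher and moved the median of all genes from 0.46 to 0.32, so the balance of directions depends on scaling. Cox7c was at a median of 44.6 CPM in F1 pools (7.77 to 204) against 252 (138 to 416), a log2 difference of -1.67 (SE 0.41), and Cox7a2l at 426 (16.2 to 1237) against 242 (95.7 to 447), a difference of 1.73 (SE 0.35). Both had the same direction in the 10-cell libraries. The call of Ndufv1 rests on F1 pool replicate 1, and its difference went from 2.32 to 0.58 without it. No member was called against the 6 spheroid pools with ERCC counts, and against the other 14 it was 2 lower and 7 higher. A voom fit called 35 lower and 4 higher, DESeq2 15 and 8, a fit without a filter on low counts 13 and 8, and one with a hepatocyte score 6 and 13. The shares of all genes given above belong to the main fit, so these counts cannot be set against them. With the 5 F1 pools under 100 CPM of Rpl19-ps11 Cox7c was not called.

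In F1 pools against nude pools 18 members were higher and 1 lower, against 8.2% and 3.79% of all genes. Of the 18, 15 were also higher in the 10-cell comparison. Cox4i1 had medians of 1710 CPM (492 to 5457) and 1657 (664 to 3107) with a fitted difference of 1.17 (SE 0.23). Uqcrh had 879 (20.3 to 6335) and 712 (3.39 to 3212) with a fitted difference of 1.34 (SE 0.37). Mean CPM was 2436.5 and 1610 for Cox4i1 and 1264 and 806 for Uqcrh. Fitted differences also rest on library scaling factors, and here they were larger than the CPM values alone give. Only Atp5e was called lower, at 675 to 2201 CPM (median 1290) against 1674 to 5283, a difference of -0.95 (SE 0.16, adjusted p 9.77e-06), and 20 of 24 F1 pools were under the lowest nude pool. Single pools carried several of the higher calls: Ndufb6 went from 3.32 to 0.94 and Ndufb4 from 3.65 to 0.94 without F1 pool replicate 2, Ndufv2 from 2.35 to 0.91 without replicate 3, and Sdhb from 2.12 to 0.95 without replicate 1. None of these remained called, and without replicate 2 the count of higher members was 11. With a hepatocyte score 2 were higher and 1 lower, with the 5 F1 pools under 100 CPM of Rpl19-ps11 also 2 and 1, and a voom fit called 7 higher and 3 lower. Uqcrh was called in none of these, and Cox4i1 not with the 5 F1 pools alone.

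Variability was measured as how far each library lay from its group median on the log2(CPM + 1) scale, in absolute terms, and was compared between 10-cell libraries and pools. No member was called in spheroids, nude liver or F1 liver (limma, adjusted p under 0.05), against 0.0%, 0.766% and 1.48% of all genes (0.0%, 0.553% and 0.537% wider in 10-cell libraries). At an unadjusted p under 0.05, 3 of 77 members were wider and 1 narrower in 10-cell spheroids, 0 wider and 14 narrower of 76 in nude liver, and 0 wider and 28 narrower of 75 in F1 liver. Over all genes the same threshold gave 333 wider and 177 narrower of 8600, 577 and 790 of 9397, and 427 and 1131 of 8760. The median difference in spread, 10-cell minus pool, was 0.05 for members and 0.06 for all genes in spheroids, -0.33 and -0.08 in nude liver, and -0.60 and -0.16 in F1 liver. The median spread of members was 0.52 in 10-cell libraries and 0.46 in pools of spheroids, 1.09 and 1.46 in nude liver, and 0.87 and 1.57 in F1 liver.

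Bulk spheroids were compared last. Of 77 members at 20 CPM or more in either kind of KP1 spheroid library, 72 were higher in the mean of the 10-cell libraries than in bulk, with a median ratio of 7.78, while all 8714 protein-coding genes at that level had a median ratio of 0.301 and 21.9% of them were above bulk. Length went with the ratio: members under 1000 bases had a median of 12.7 (48 of 48 above bulk) and longer ones 2.68 (24 of 29), and other genes 4.77 and 0.271. The largest ratios were for Uqcrh, at 2029 ± 681 CPM in 10-cell libraries and 31.6 in bulk (64.2-fold), and Cox7b, another small complex IV subunit (38.4-fold). The ratios use the counts of the members alone, and the share held by pseudogenes differs between the protocols for several of them, as given above. Sdhd, the other anchor of complex II, went the other way, at 2.70 ± 4.73 CPM in 10-cell libraries and 71.1 in bulk, 26.3-fold higher in bulk, as did Uqcrc2 at 24.0 ± 23.8 and 129. The protocols differ in RNA extraction, amplification and library kit and the bulk line was sequenced once, so protocol and sample cannot be told apart. Among the bulk lines the members summed to 6550 CPM in KP1, 8147 in KP2, 5754 in KP3 and 9950 in KP5, with complex IV at 864, 1376, 850 and 1782. KP5 had the highest sum of complexes I, III, IV and V, and with 1 library per line these differences have no replicate check.

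**Figure D5:**
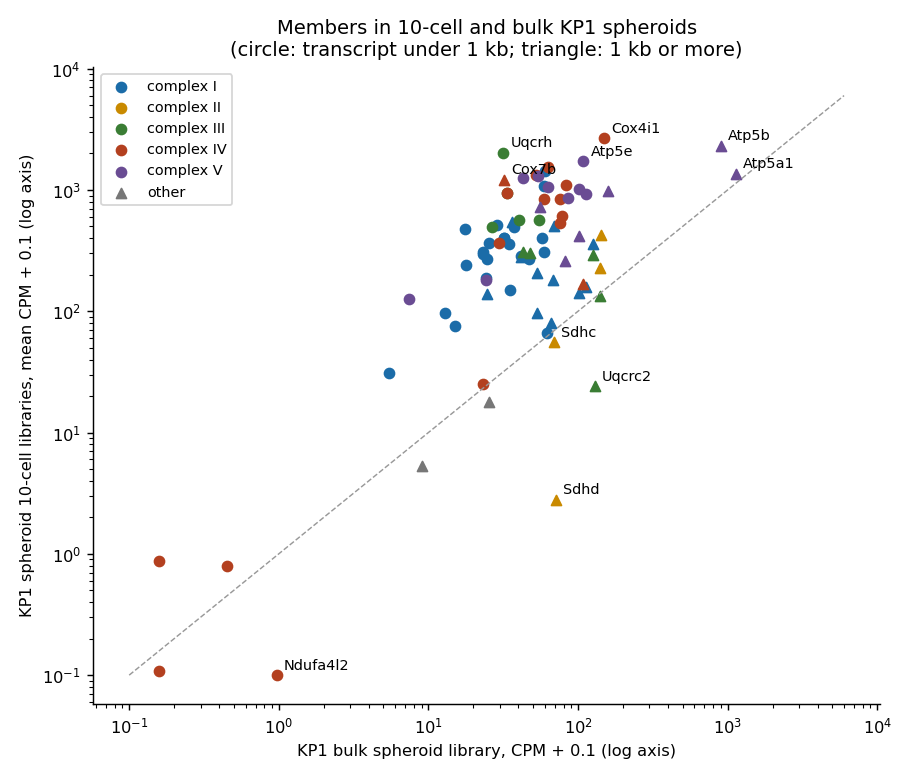
Mean CPM of each member in the KP1 spheroid 10-cell libraries against its CPM in the single KP1 bulk library, both on log axes with 0.1 added; circles are transcripts under 1 kb, triangles longer ones, and the dashed line marks equal levels. Of 77 members at 20 CPM or more, 72 lie above the line, and Sdhd and Uqcrc2 lie clearly below it.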

How the data were processed

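The deposited values are expected counts per gene, made by the authors with RSEM and Bowtie2, per the submitters' processing notes, which name the builds GRCm38 and GRCh38.p12 without saying which was used for what; read filters are not given in the sources used here. The table holds 31581 genes and 92 ERCC transcripts. Of the gene values 89.3% are whole (tolerance 1e-09). Per the labels' protocols, 10-cell libraries were made from laser-captured cryosections by poly(A) PCR and Nextera XT, and bulk libraries by NEBNext Ultra from oligo-dT-selected total RNA. ERCC rows were left out and CPM computed from the deposited expected counts. No pair of libraries agreed within sampling noise (lowest chi-square per degree of freedom 29.1).

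For tests, counts were rounded to whole numbers and fitted with edgeR 4.0.16 in R 4.3.3 (TMM scaling, filterByExpr, robust quasi-likelihood test, Benjamini-Hochberg adjustment over all genes tested, adjusted p under 0.05) in 7 two-sided comparisons of level, each on the libraries of its own groups. Spread was tested in 3 comparisons with limma 3.58.1 on the absolute deviation of log2(CPM + 1), for genes at a mean of 5 CPM or more. Scripts were tested on simulated data. Intervals between libraries cover their spread, and low counts limit members near 0. The members and lists were chosen with earlier results of these data known. Named genes were, per comparison and complex, the called member with the smallest p in each direction, fixed alternative forms, and the members highest in CPM and per length; other names were chosen after their values were seen. Alternatives were other scalings, filters, tools (DESeq2 1.42.0, limma-voom), a replicate block, thinning to the lowest library total, a hepatocyte score, and splits by ERCC counts (0.1% of all counts) and Rpl19-ps11. Pseudogene matching (blastn 2.17.0, at least 90% identity over 50% of the pseudogene; 72 pseudogenes, 32 members), leaving out single high libraries (from fits and from the complex I sum) and the strata of length and level were added after the data were seen. Gene positions are those of the files and motif searches used RefSeq GRCm38.p6. Figures were drawn with matplotlib 3.10.9.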

Additional observations from a re-analysis of the deposited data

Results flagged for a closer look

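The direct comparison of F1 with nude liver is also the test of whether the differences from spheroids differ between the 2 hosts. Both are taken against the same spheroid libraries. Of 75 tested members 37 passed it (edgeR, adjusted p under 0.05), against 19.2% of all 7064 genes. Those named by the rule for this comparison were Uqcrh (log2 difference 1.43, F1 minus nude), Cox8a (1.92), Atp5b (1.14), Ndufb6 (2.35), Atp5e (-0.59) and Ndufb2 (-3.02). The value of Ndufb2 rests on a single nude liver library and was -0.30 without it. Atp5e was higher than in spheroids in nude liver, and its call against F1 liver lay close to the threshold (adjusted p 0.0485). With only the 5 F1 libraries under 100 CPM of Rpl19-ps11, 2 members were called, and Uqcrh, Cox8a and Atp5b were not. Fewer libraries enter that fit.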

How the results depend on the processing

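Counts of called members changed by more than 1.5 times under these alternatives. No share of all genes called is given beside them, since such shares were read from the main fits only. With a hepatocyte score in the fit, the count was 33 in place of 57 for nude liver against spheroids, 13 in place of 23 for F1 liver against spheroids, 3 in place of 33 for nude pools, 19 in place of 11 for F1 pools against spheroid pools and 3 in place of 19 for F1 against nude pools. With only the spheroid libraries that carried ERCC counts, it was 7 for F1 liver, 16 for nude pools and 0 for F1 pools (edgeR), and with only those without them 12 for F1 liver. With only F1 libraries under 100 CPM of Rpl19-ps11, it was 2 in place of 37 for F1 against nude liver and 3 for the pools of the same comparison. A limma-voom fit gave 57 for nude pools, 39 for F1 pools against spheroid pools and 10 for F1 against nude pools. DESeq2 gave 23 and no filter 21 for F1 pools against spheroid pools. The replicate block gave 4 in place of 19 for F1 against nude pools. Fewer libraries enter the split fits; the cause was otherwise not tested.

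Replicate numbers did not pair the samples (correlations of same-numbered libraries from -0.21 to 0.40, medians near 0). With the block the other counts were 59, 18, 35, 30, 45 and 14 in the order nude liver, F1 liver, F1 against nude, RPC, nude pools and F1 pools. Of 1378 values of single genes under alternatives, 1224 kept direction and call, 137 lost the call, 3 gained it and 14 changed sign. Most losses sat in a few alternatives: with the hepatocyte score 54 kept the call, 25 lost it and 3 changed sign, with only spheroid libraries with ERCC counts 42, 29 and 1, and with only F1 libraries with low Rpl19-ps11 12, 27 and 5. The sign changes were Ndufb2 in nude liver (-0.063 by voom, -0.36 with the block, -0.11 without nude replicate 30), Cox6a2 (4.81) and Ndufs3 (-0.23) in nude liver with the hepatocyte score, Sdhb in F1 liver (0.067 with low Rpl19-ps11), Ndufa2 in nude pools (-0.028 with ERCC), Ndufv1 in F1 pools (-0.44 by voom, -0.086 with the block), Uqcrc1 (-0.10) and Atp5a1 (-0.14) in F1 pools with low Rpl19-ps11, and in F1 against nude pools Ndufb6 (-0.12 with the hepatocyte score, -0.20 with low Rpl19-ps11) and Sdhb (-0.39 with low Rpl19-ps11). RLE scaling moved the median of all genes from 0.16 to -0.06 in nude pools and TMMwsp to 0.27.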
